A study of Mus musculus with 30 samples.

Results

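The genes described here encode the families of axon guidance cues and their receptors: semaphorins and plexins, ephrins and Eph receptors, Slits and Robos, netrins and Unc5 receptors. They were taken by their mouse symbols from the table of counts, as protein-coding genes of these families with the plexin domain containing genes left out, which gave 65 of 38561 genes. Of these, 53 passed the filter on low counts, as did 14438 genes in all. Semaphorins signal through plexins, and the secreted class 3 semaphorins do so mostly together with neuropilins. Ephrins sit in the membrane of one cell and bind Eph receptor tyrosine kinases on the next, with A-type ephrins held by a lipid anchor and B-type ephrins by a transmembrane segment. Slits repel growing processes through Robo receptors, and netrins attract or repel through Dcc, neogenin and the Unc5 receptors. The same families steer vessels, immune cells and connective tissue cells, and adipose tissue is known to make several of the cues, among them Slits and netrins.

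The cells were adipose-derived stem cells, fibroblast-like progenitors isolated from the inguinal fat of male C57BL6/J mice. Cells that carried Sca-1 and CD34 and lacked CD31, CD45 and Ter119 were sorted and grown to passage 2, and each mouse gave 1 library. The groups were aged obese (6 mice), aged lean (8 mice), young obese (8 mice) and young lean (8 mice). Aged mice were killed at 52 weeks and young mice at 20 weeks. Obese mice were fed, since weaning, food in which fat supplied 60% of the energy, and lean mice a control diet. Aged obese mice had eaten the fat-rich diet for longer than young obese mice, so age and time on that diet cannot be told apart in obese mice. All cells were cultured, so the values describe the progeny of the sorted cells. Libraries are named here by group and mouse number.

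Counts in genes ranged from 30597765 to 47970233 per library, and a level in CPM is the count divided by the scaled size of its library. Sca-1 RNA (Ly6a) lay between 176.5 and 1254 CPM and Cd34 RNA between 0.193 and 38.0 CPM. Both were lowest in aged obese 10 and 12, where Ly6a was at 176.5 and 361.8 CPM. The defining markers of endothelial cells (Pecam1), leukocytes (Ptprc), Schwann cells (Sox10) and neurons (Rbfox3) averaged 0.115 CPM or less. Other genes of these lists were not near 0: 3 of 10 endothelial, 3 of 9 leukocyte, 1 of 8 Schwann cell and 1 of 5 neuron markers averaged 1 CPM or more, among them Tek at 6.67, Csf1r at 17.8 and Tubb3 at 159.9 CPM. The summed leukocyte markers ranged from 15.9 to 30.02 CPM in aged obese, 12.1 to 36.8 CPM in aged lean, 19.5 to 31.5 CPM in young obese and 14.9 to 35.1 CPM in young lean libraries. Their part in the differences was not tested. Aged obese 10 and 12 stood apart from the other 4 aged obese libraries. They lay both below all the others in 26.4% and both above them in 24.5% of the 53 guidance genes, against 26.8% and 26.1% of all genes tested. Young obese 1 and 2 stood apart likewise, both below the other 6 in 17% and both above them in 37.7% of the guidance genes, against 27.7% and 30.1% of all genes. Single libraries stood apart too. Young obese 22 was the highest or lowest of its group in 60.4% of the guidance genes and 50.3% of all genes. Young lean 26 was so in 49.1% of the guidance genes and 55.2% of all genes. No pair of libraries of a group agreed within sampling noise (chi-square per gene 6.44 or more).

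The guidance genes varied more between mice of a group than genes did in general. The median SD of their log2 CPM was 0.58 in aged obese, 0.45 in aged lean, 0.35 in young obese and 0.43 in young lean libraries. Over all genes tested it was 0.32, 0.25, 0.22 and 0.25 in the same order of groups. Aged obese libraries thus spread the most in both sets, and the fit used 1 estimate of the spread for all groups.

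Levels can be set side by side between genes only per length, and for this purpose CPM were divided by the kilobases of exon of each gene. On this scale 4 genes led the families in all 4 groups: Efnb1, a transmembrane ephrin; Slit3, a secreted Slit; Unc5b, a netrin receptor; and Plxnb2, a plexin that binds class 4 semaphorins. Their means over the 30 libraries were 62.7, 54.1, 53.5 and 41.1 CPM per kilobase. Efnb1 had the highest median per kilobase and Plxnb2 the fourth highest in each group, while Slit3 and Unc5b traded the ranks between them. Next came Plxna1, a plexin that pairs with neuropilins to receive class 3 semaphorins, at 26.2 CPM per kilobase, and Ephb4, the receptor of ephrin-B2, at 22.4 CPM per kilobase. Each of the 11 families except the Robos and the A-type Eph receptors and ephrins had a member above 6 CPM per kilobase. Robo1, a Slit receptor, averaged 0.615 CPM per kilobase, although its ligand gene Slit3 was among the most abundant guidance transcripts per length. Not divided by length, they averaged 10.2 and 328.2 CPM. The length was that of all annotated exons of a gene together, 16511 bases for Robo1 and 6067 for Slit3. Levels and ranks per kilobase therefore depend on the annotated transcripts.

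**Figure D1:**
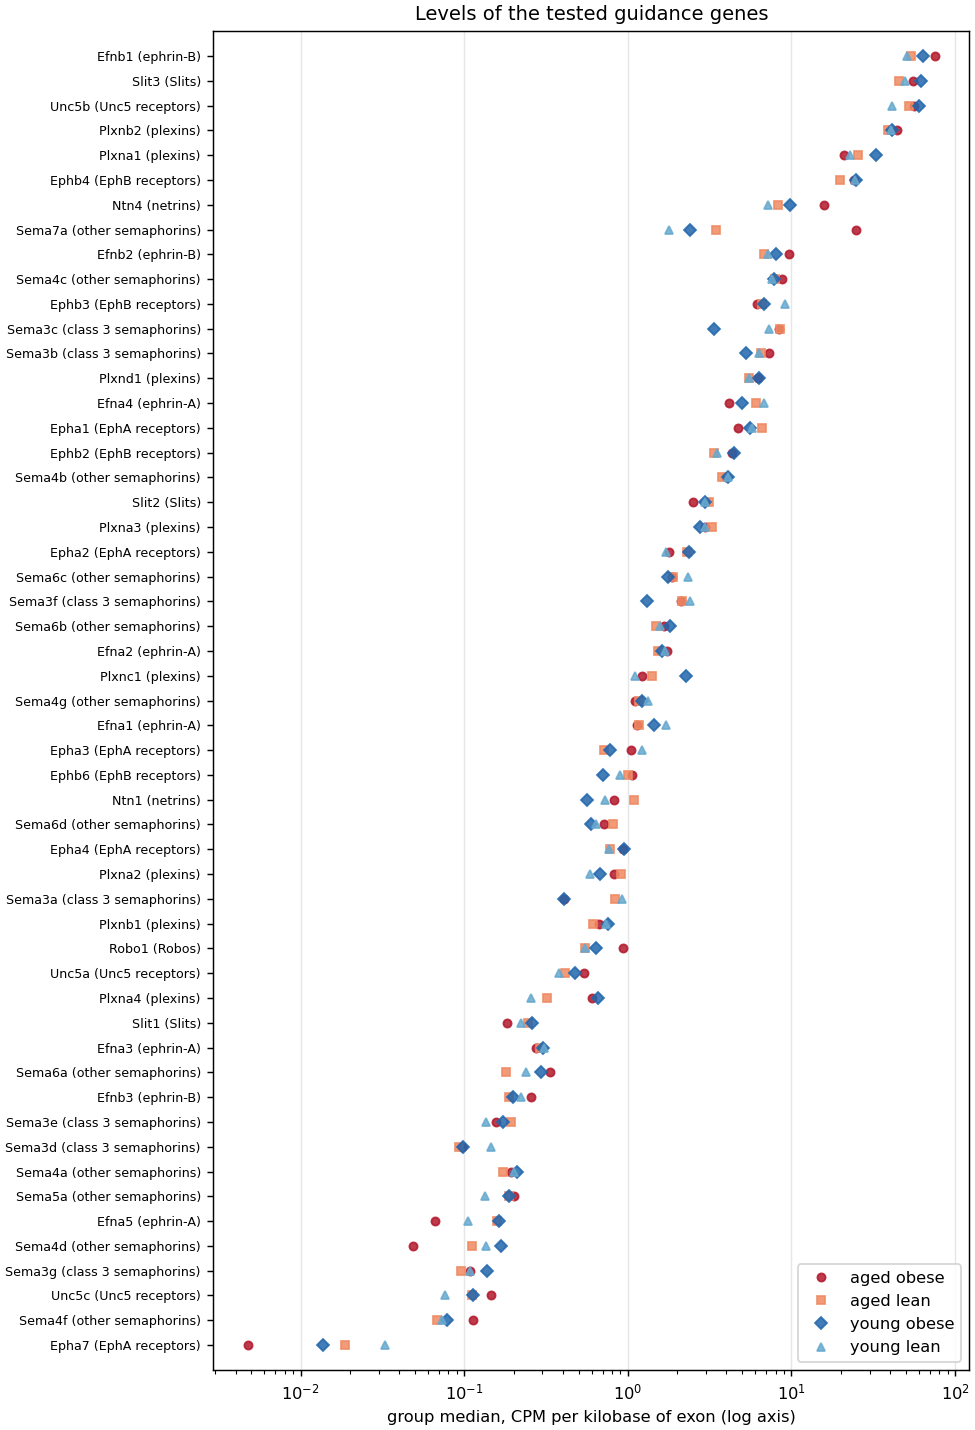
Group medians of the 53 tested guidance genes in CPM per kilobase of exon on a log axis, ordered by mean level, with circles for aged obese, squares for aged lean, diamonds for young obese and triangles for young lean libraries. Efnb1, Slit3, Unc5b and Plxnb2 lie at the top in every group, and the Sema7a circle lies far to the right of its other 3 symbols.

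In this plot of levels per kilobase most genes have their 4 medians close together, and the Sema7a median of aged obese libraries stands out. Sema7a had the 5th highest median per kilobase in aged obese libraries, the 17th in aged lean, the 20th in young obese and the 22nd in young lean libraries. At the foot of the plot Epha7, an A-type Eph receptor, averaged 0.0190 CPM per kilobase.

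The other 12 guidance genes were too low to test. Epha6, an Eph receptor known from the nervous system, had 0 counts in all 30 libraries. Robo4, the Robo of endothelial cells, had 2 counts over all libraries, Epha5 had 4, Ephb1 had 5, Epha10 had 7 and Epha8 had 11. Plxnb3, Unc5d, Ntn5 and Sema5b had between 18 and 47 counts in all. Robo3 had 98 and Robo2 had 111 counts over the 30 libraries, at most 8 and 13 in any one of them. Of the 4 Robo genes, therefore, Robo1 alone could be tested. Robo2 had 0 to 3 counts in aged obese, 0 to 13 in aged lean, 0 to 8 in young obese and 2 to 12 in young lean libraries. Whether these 12 genes differed between groups was not tested.

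The comparisons asked what obesity did in young and in aged mice, what age did in lean and in obese mice, and how aged obese differed from young lean cells. Genes were called at a Benjamini-Hochberg adjusted p below 0.05 over all 14438 genes in edgeR's quasi-likelihood test, and fold changes are on the log2 scale with their standard error. In bulk RNA, fewer cells of a type and less RNA per cell cannot be told apart, and this holds for each difference below. Over all comparisons 9 guidance genes were called at least once, in 11 calls.

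Among the semaphorins, Sema7a rose in aged obese cells. Sema7a (ENSMUSG00000038264, chromosome 9) encodes a semaphorin held in the membrane by a lipid anchor, which binds plexin C1 and beta-1 integrins. In aged obese libraries it had 248, 166, 83.5, 80.1, 17.5 and 10.3 CPM, in mice 15, 17, 10, 12, 14 and 16. In aged lean libraries it lay between 6.14 and 17.2 CPM in 7 mice and at 169.6 CPM in mouse 16. In young obese libraries the lowest, median and highest values were 5.07, 7.89 and 28.8 CPM, with mice 1 and 2 at the top. In young lean libraries they were 5.07, 5.92 and 16.8 CPM. All 6 aged obese libraries lay above the medians of both young groups, yet the ranges overlapped, since aged obese 14 and 16 were within the range of young obese libraries.

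The log2 fold change of Sema7a was 3.07 ± 0.70 in aged obese against young obese cells (adjusted p = 0.0212) and 3.72 ± 0.72 against young lean cells (adjusted p = 0.00436). Without aged obese 15 the value against young obese cells was 2.57 and was no longer called (adjusted p = 0.0939), whereas against young lean cells it stayed called at 3.22 (adjusted p = 0.0210). Without aged obese 10 and 12 the values were 3.21 and 3.86, both called, and without young obese 1 and 2 the value against young obese cells was 3.66, also called. In aged obese against aged lean cells the log2 fold change was 1.72 ± 0.68 and was not called (adjusted p = 0.268), with 5 of 6 aged obese libraries above the aged lean median. This comparison of Sema7a was followed after its values were seen: without aged lean 16 it was 3.20 and called (adjusted p = 0.00256), as it was without aged lean 16 and aged obese 15, at 2.73 (adjusted p = 0.0101). In aged lean against young lean cells the log2 fold change was 2.0 ± 0.66 and was not called (adjusted p = 0.85). That value rested on 1 library, and without aged lean 16 it was 0.52.

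Heyl, a Notch target found in mural cells and 1 of 9 mural markers listed, was also high in several of the libraries with high Sema7a. Heyl had 134.9 CPM in aged obese 15, 49.96 CPM in aged obese 17 and 47.1 CPM in aged lean 16. In aged obese 10 and 12, where Sema7a exceeded 80 CPM, Heyl was at 0.0428 and 0.328 CPM. Other mural markers did not all move with Heyl. In aged obese 15, Cspg4 and Rgs5 were the highest of all libraries, at 104.7 and 4.66 CPM. Des was the lowest of its group there, at 26.3 CPM. In aged obese 17 and aged lean 16, Notch3 was the highest of its group, at 68.1 and 60.0 CPM. Mcam was the lowest of its group in the same libraries, at 20.6 and 20.9 CPM. Myh11 was at 36.4 and 32.3 CPM there, against 275 and 214 CPM in aged obese 10 and 12. The 9 mural markers together summed to 232 to 635 CPM in aged obese, 115 to 299 CPM in aged lean, 159 to 346 CPM in young obese and 160.0 to 305 CPM in young lean libraries. Of the 9, Kcnj8 was near 0 and 7 averaged 1 CPM or more. Their part in the difference of Sema7a was not tested.

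Plexin C1, the receptor of Sema7a, was higher in young obese cells. Plxnc1 (ENSMUSG00000074785, chromosome 10) had 9.34, 18.9 and 24.4 CPM as its lowest, median and highest value in young obese libraries, against 4.24, 9.18 and 12.9 CPM in young lean libraries. In aged obese libraries it lay between 7.84 and 13.1 CPM and in aged lean libraries between 5.86 and 17.7 CPM. All 8 young obese libraries lay above the young lean median, with young obese 1, 2 and 22 inside the young lean range. The log2 fold change in young obese against young lean cells was 0.99 ± 0.24 (adjusted p = 0.0195) and held in all 16 fits that left out a library. It was 1.15 without young obese 1 and 2 (adjusted p = 0.0331). With an offset for gene length and GC content it was 0.84 and just missed the threshold (adjusted p = 0.0542). In aged obese against young obese cells Plxnc1 had a log2 fold change of −0.80 ± 0.26, which was not called (adjusted p = 0.0781), although all 6 aged obese libraries lay below the young obese median.

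Plxna1 was the guidance gene that set young obese apart most cleanly. Plxna1 (ENSMUSG00000030084, chromosome 6) had 279.5, 298 and 329 CPM as its lowest, median and highest value in young obese libraries, against 126, 207 and 234 CPM in young lean libraries. Every young obese library lay above every young lean library. It was the only one of 53 guidance genes whose groups did not overlap in this comparison, as was the case for 1.61% of all genes tested. The log2 fold change was 0.59 ± 0.11 (adjusted p = 0.00901), and the call held in all 16 fits that left out a library and without young obese 1 and 2 (0.59, adjusted p = 0.0314). With the offset for gene length and GC content the log2 fold change was smaller, at 0.48, and still called (adjusted p = 0.0175).

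In aged mice Plxna1 was not called for obesity. It had 180.2, 190.3 and 280.5 CPM as its lowest, median and highest value in aged obese libraries, against 176, 229 and 279.7 CPM in aged lean libraries, and these ranges overlapped almost entirely. Aged obese 10 and 12, at 256 and 280.5 CPM, stood above the other 4 aged obese libraries, which lay between 180.2 and 191 CPM. Plxna1 fell in aged obese against young obese cells by 0.49 ± 0.12 on the log2 scale (adjusted p = 0.0273). That call was lost in 5 of 14 fits that left out a library, namely aged obese 14, 15 or 17 or young obese 20 or 21, with an adjusted p of up to 0.103. Without aged obese 10 and 12 the fall was larger, −0.68 on the log2 scale (adjusted p = 0.00366).

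The difference of the obesity effect between aged and young mice was tested as an interaction. Of the 53 guidance genes 0 were called by edgeR or DESeq2 and 2 by voom, and edgeR called 0.00693% of all genes. At an unadjusted p below 0.05 there were 7 guidance genes, or 13.2%, against 8% of all genes. For Plxna1 the interaction was −0.68 ± 0.16 on the log2 scale and for Plxnc1 −1.22 ± 0.35, and neither was called (adjusted p = 0.279 and 0.366). Without aged obese 10 and 12 the value of Plxna1 was −0.87 and was called (adjusted p = 0.0270), and limma's voom with quality weights also called it at −0.75 (adjusted p = 0.0127). The third smallest p belonged to Efna5, an A-type ephrin, at −1.35 ± 0.48 (adjusted p = 0.54), a gene at 1.10 CPM or less in every library.

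**Figure D2:**
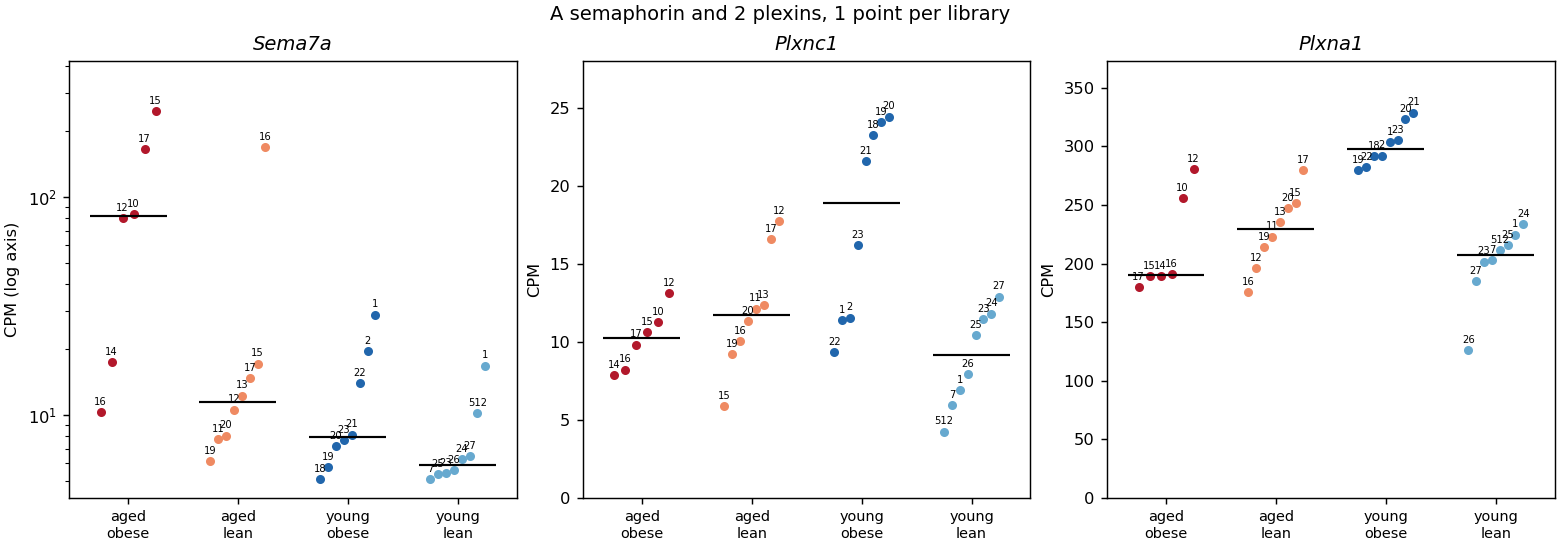
CPM of Sema7a (log axis), Plxnc1 and Plxna1 in each library, with 1 point per mouse, its mouse number above the point and a line at the group median. Sema7a is above 80 CPM in 4 aged obese libraries and in aged lean 16 alone elsewhere, and all 8 young obese libraries lie above all young lean libraries for Plxna1.

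The plot of Sema7a and both plexins by library shows that the ligand and its plexin C1 receptor were not high in the same group: Sema7a was highest in aged obese and Plxnc1 in young obese libraries. The 250 bases before the RefSeq start of either gene are shown because they are a ligand and its receptor, called in different comparisons. They lie at chr9:57939862-57940111 on the plus strand for Sema7a and at chr10:94944846-94945095 on the minus strand for Plxnc1, in GRCm38.p6, written 5′ to 3′ along the gene with each GC box (GGGCGG on either strand) in capitals.

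Sema7a: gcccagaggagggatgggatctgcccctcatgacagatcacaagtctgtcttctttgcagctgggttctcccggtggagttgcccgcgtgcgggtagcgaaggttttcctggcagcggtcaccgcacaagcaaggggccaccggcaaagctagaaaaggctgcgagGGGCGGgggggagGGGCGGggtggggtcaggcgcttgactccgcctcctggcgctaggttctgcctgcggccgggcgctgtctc

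Plxnc1: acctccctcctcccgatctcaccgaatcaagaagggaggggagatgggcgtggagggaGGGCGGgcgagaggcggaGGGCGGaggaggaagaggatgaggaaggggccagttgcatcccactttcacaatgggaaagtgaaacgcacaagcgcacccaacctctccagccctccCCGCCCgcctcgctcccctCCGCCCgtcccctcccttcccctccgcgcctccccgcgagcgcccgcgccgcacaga

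Sema7a had 2 GC boxes in this window, at 84 and 71 bases before the start, and Plxnc1 had 4, on both strands. GC content was 66.4% for Sema7a and 68.8% for Plxnc1. A GC box stood in 32.7% of the 32851 promoter windows of this length. Neither window held, on either strand, a CCAAT box (in 33.8% of all windows), the TATA box letters TATAAA (in 12.4%), the AP-1 site letters TGACTCA (in 4.46%) or the RBPJ core letters GTGGGAA (in 5.42%). Of the 65 guidance genes 56 had such a window in the RefSeq table, and Plxna1 was not among them.

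Obesity in young mice changed few guidance genes. Of 53 tested, 2 were called, both plexins and both higher, against 8.83% of all genes tested (3.46% higher and 5.37% lower). Of the 8 plexins tested, 6 were thus not called, among them Plxnb2, with a lowest, median and highest value of 279.7, 318 and 339.5 CPM in young obese and 229, 313 and 362 CPM in young lean libraries. None of the 7 class 3 semaphorins, 12 other semaphorins, 9 Eph receptors, 8 ephrins, 3 Slits, 2 netrins or 3 Unc5 receptors was called. The share called was below that of all genes, and the median log2 fold change was 0.02, against −0.02 over all genes. Unc5b came next by its p, with 278, 374 and 463 CPM as lowest, median and highest value in young obese libraries and 202, 258 and 328 CPM in young lean libraries. All 8 young obese libraries lay above the young lean median, and the log2 fold change of 0.50 ± 0.16 just missed the threshold (adjusted p = 0.0513). It was called by DESeq2 (adjusted p = 0.0273), by voom, with DESeq2's size factors and in the fit of the young groups only. It was not called with the length and GC offset (0.44, adjusted p = 0.114), with no filter, without young obese 1 and 2 or in any of 16 fits that left out a library.

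In aged mice no guidance gene was called for obesity by edgeR, and 1 was called by DESeq2 and 0 by voom. The share called over all genes was also small, at 0.222% (0.166% higher and 0.0554% lower). At an unadjusted p below 0.05 there were 15 of 53 guidance genes, or 28.3%, against 12.7% of all genes. Of these 15, Epha7, Sema4f and Sema3a had the smallest p, with log2 fold changes of −2.40 ± 0.66, 1.24 ± 0.35 and −1.21 ± 0.40 and adjusted p of 0.105, 0.121 and 0.187. Epha7 passed the filter on low counts only through lean libraries. Sema3a, a secreted repellent that acts through neuropilin-1 and A-type plexins, had 2.79, 5.68 and 9.23 CPM as lowest, median and highest value in aged obese libraries, against 8.88, 11.6 and 22.6 CPM in aged lean libraries. The ranges touched only at aged obese 10, at 9.23 CPM, and aged lean 11, at 8.88 CPM, with aged lean 15 and 16 also below 9.23 CPM. Sema4f, a transmembrane semaphorin, exceeded 1 CPM in no library except aged obese 10 and 12, at 1.80 and 1.56 CPM.

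Age in lean mice left the guidance genes without a call: 0 of 53 by edgeR, DESeq2 or voom, and 0% of all genes by edgeR. At an unadjusted p below 0.05 there were 4 guidance genes, or 7.55%, against 773 of all genes, or 5.35%. Besides Sema7a, the smallest p belonged to Ephb4 and Epha2. Ephb4 had 56.2, 91.5 and 107 CPM as lowest, median and highest value in aged lean libraries and 99.9, 113 and 127 CPM in young lean libraries. All 8 aged lean libraries lay below the young lean median, and the log2 fold change was −0.35 ± 0.14 (adjusted p = 0.85). Epha2, an Eph receptor of many epithelial and connective tissue cells, had a log2 fold change of 0.74 ± 0.32 (adjusted p = 0.85).

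Age in obese mice moved Sema7a up and Plxna1 down, and no other guidance gene was called. These were 2 of 53, against 3.07% of all genes (1.87% higher and 1.2% lower). The other 11 semaphorins outside class 3, the 7 class 3 semaphorins, the other 7 plexins and all Eph receptors, ephrins, Slits, netrins, Unc5 receptors and Robo1 did not pass the test. The median log2 fold change of the 53 genes was 0.03, against 0.01 over all genes. The count depended on which libraries were used: it was 9 without aged obese 10 and 12, 4 without young obese 1 and 2, and 1 without aged lean 16 and aged obese 15. The share of all genes called in those fits is not given here, so the moves cannot be read as particular to guidance genes.

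Between the extremes of the design, aged obese and young lean cells, 7 guidance genes were called. Sema7a, Ntn4, Efnb1 and Unc5b were higher and Sema3a, Efna4 and Epha7 lower in aged obese cells. The share was 13.2% of 53, against 10.3% of all genes (5.62% higher and 4.65% lower). This contrast sums the effects of age, diet and a longer time on the diet.

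Ntn4, a netrin of basement membranes that binds laminins, rose in aged obese cells. Ntn4 (ENSMUSG00000020019, chromosome 10) had 92.8, 70.5, 67.1, 50.6, 44.9 and 19.02 CPM in aged obese mice 10, 15, 12, 17, 14 and 16. In young lean libraries its lowest, median and highest values were 21.5, 26.9 and 37.5 CPM. The 5 highest aged obese libraries lay above every young lean library and aged obese 16 below all of them. Aged lean libraries lay between 20.6 and 58.6 CPM and young obese libraries between 25.4 and 58.9 CPM. The log2 fold change in aged obese against young lean cells was 1.06 ± 0.25 (adjusted p = 0.0103) and was called in all 14 fits that left out 1 library. Without aged obese 10 and 12, it was 0.75 and missed the threshold (adjusted p = 0.0593), and voom gave 0.64 (adjusted p = 0.13).

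Unc5b, which encodes a netrin receptor best known from vessel sprouts, was also higher. Unc5b (ENSMUSG00000020099, chromosome 10) had 585, 482, 380, 319, 302 and 223 CPM in aged obese mice 15, 17, 12, 14, 10 and 16, against 202, 258 and 328 CPM as lowest, median and highest value in young lean libraries. The 3 highest aged obese libraries lay above all young lean libraries, and the other 3 were within their range. The log2 fold change was 0.53 ± 0.17 (adjusted p = 0.0477). It was called in 5 of 14 fits that left out a library, with an adjusted p of 0.293 under voom.

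The 250 bases before the RefSeq starts of Ntn4 and Unc5b are shown because this netrin and this netrin receptor rose in the same comparison. They lie at chr10:93640799-93641048 on the plus strand for Ntn4 and at chr10:60831582-60831831 on the minus strand for Unc5b, in GRCm38.p6, with GC boxes in capitals as above.

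Ntn4: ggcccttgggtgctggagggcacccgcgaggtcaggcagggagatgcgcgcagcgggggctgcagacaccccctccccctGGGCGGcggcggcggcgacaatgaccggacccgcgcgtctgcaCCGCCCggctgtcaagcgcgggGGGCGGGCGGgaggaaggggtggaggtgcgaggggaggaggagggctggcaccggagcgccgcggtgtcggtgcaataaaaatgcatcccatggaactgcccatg

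Unc5b: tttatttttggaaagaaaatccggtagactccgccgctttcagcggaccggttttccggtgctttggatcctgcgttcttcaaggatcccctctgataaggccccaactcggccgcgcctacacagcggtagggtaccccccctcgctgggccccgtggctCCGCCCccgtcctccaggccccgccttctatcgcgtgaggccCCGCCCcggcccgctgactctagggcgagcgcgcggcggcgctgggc

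Ntn4 had 4 GC boxes, of which the pair nearest the start overlapped, and Unc5b had 2. GC content was 73.2% for Ntn4 and 66.8% for Unc5b. None of the other letters searched stood in either window, and a match describes the letters only.

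The ephrins moved in both directions. Efnb1 (ENSMUSG00000031217, chromosome X), a ligand of B-type Eph receptors, had 468, 395, 306, 213, 188 and 172 CPM in aged obese mice 15, 17, 14, 12, 16 and 10, against 141, 176 and 210.4 CPM as lowest, median and highest value in young lean libraries. Of the aged obese libraries, 4 lay above all young lean libraries. The log2 fold change was 0.71 ± 0.21 (adjusted p = 0.0317), and the call was lost without aged obese 15, aged obese 17 or young lean 26 (adjusted p up to 0.128). Efnb2, the other abundant B-type ephrin, had a lowest, median and highest value of 49.2, 66.5 and 98.8 CPM in aged obese and of 28.4, 49.1 and 60.0 CPM in young lean libraries, and was not called.

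Efna4 (ENSMUSG00000028040, chromosome 3), an A-type ephrin, was lower, with 10.4, 10.1, 7.30, 6.01, 5.28 and 3.21 CPM in aged obese mice 16, 14, 12, 10, 17 and 15. In young lean libraries its lowest, median and highest values were 7.42, 10.8 and 17.8 CPM. All 6 aged obese libraries lay below the young lean median, and 2 of them were inside the young lean range. It fell by 0.67 ± 0.21 on the log2 scale (adjusted p = 0.0390), and the call held in 5 of 14 fits that left out a library.

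Sema3a (ENSMUSG00000028883, chromosome 5) was lower as well. It had 9.23, 8.36, 6.76, 4.60, 2.89 and 2.79 CPM in aged obese mice 10, 12, 16, 15, 17 and 14, against 7.04, 12.8 and 33.1 CPM as lowest, median and highest value in young lean libraries. In young obese libraries its median was 5.65 CPM, with mouse 22 at 24.4 CPM. It fell by 1.33 ± 0.40 on the log2 scale in aged obese against young lean cells (adjusted p = 0.0330), a call kept in 9 of 14 fits that left out a library. The other class 3 semaphorins were not called. Sema3c, a secreted cue of vessel and heart development, had the highest level of the class per kilobase and a wide range in CPM: 5.35, 60.0 and 114 CPM as lowest, median and highest value in aged obese libraries and 19.9, 52.4 and 98.7 CPM in young lean libraries. Sema3b, which also binds neuropilins, had 6.89, 34.6 and 66.9 CPM in aged obese and 10.4, 30.1 and 43.4 CPM in young lean libraries.

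Epha7 (ENSMUSG00000028289, chromosome 4) had the largest fall but rested on very few reads. It had 0, 2, 2, 3, 2 and 0 counts in aged obese mice 10, 12, 14, 15, 16 and 17, and between 1 and 26 counts in young lean libraries. Young lean 1, with 1 count, and young lean 23, with 3 counts, overlapped the aged obese libraries. It fell by 2.94 ± 0.65 on the log2 scale (adjusted p = 0.00857), and the call held in all 14 fits that left out a library but not under voom (adjusted p = 0.0748).

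**Figure D3:**
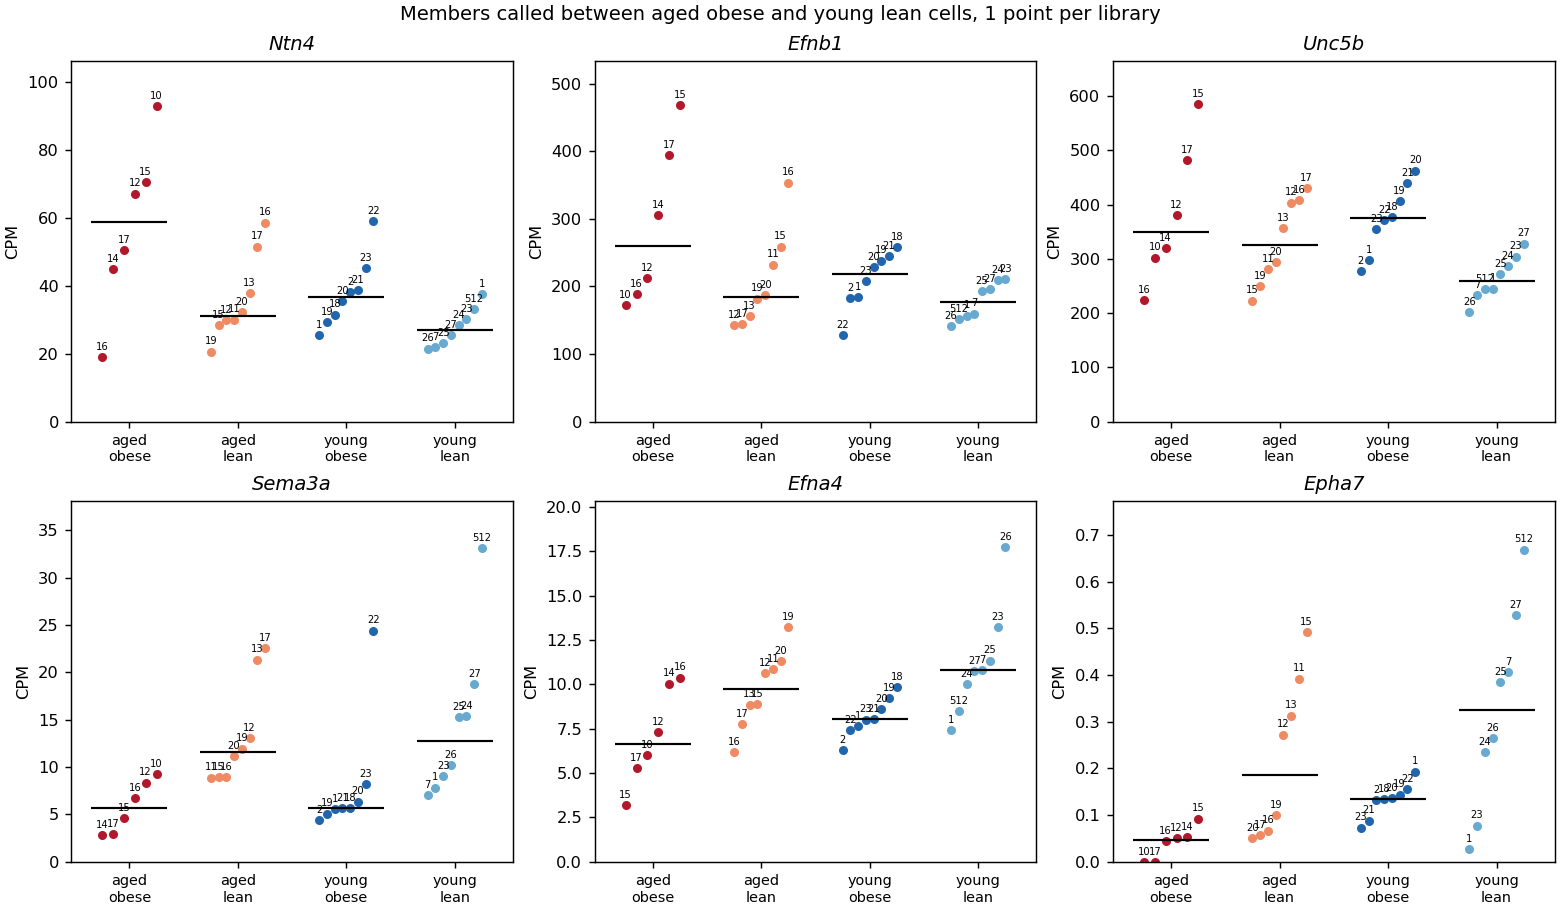
CPM of Ntn4, Efnb1, Unc5b, Sema3a, Efna4 and Epha7 in each library, with 1 point per mouse, its mouse number above the point and a line at the group median; each axis starts at 0. Aged obese 15 is highest for Efnb1 and Unc5b and lowest for Efna4, aged obese 16 is lowest for Ntn4, and Epha7 stays below 0.7 CPM in every library.

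In the plot of the 6 genes other than Sema7a, all have overlapping points in aged obese and young lean libraries, and no guidance gene separated these groups fully, as 1.04% of all genes did. By group medians, aged lean lay nearer to young lean than young obese did for each of the 6 genes. The young obese median went past that of aged obese for Unc5b and, barely, for Sema3a. This order was read off the medians and was not tested. Sema3a, Efna4 and Epha7 medians were 11.6, 9.75 and 0.186 CPM in aged lean and 5.65, 8.02 and 0.135 CPM in young obese libraries. Ntn4, Efnb1 and Unc5b medians were 31.1, 185 and 325 CPM in aged lean and 36.8, 218 and 374 CPM in young obese libraries.

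Other receptors and cues were called in no comparison and varied widely between mice of a group. Among the B-type Eph receptors, Ephb2 ranged from 22.1 to 103 CPM within aged obese libraries and from 36.9 to 56.1 CPM within young lean libraries. Among the Slits, Slit3 had 153 and 190 CPM in aged obese 10 and 12 and 273 to 522 CPM in the other 4. Slit2, which repels through Robo receptors and whose fragment acts on thermogenic fat in mice, had 16.2 and 24.8 CPM in aged obese 10 and 12 and 55.4 to 173 CPM in the other 4. Robo1 had a lowest, median and highest value of 8.03, 15.5 and 18.9 CPM in aged obese libraries, 6.78, 9.02 and 11.2 CPM in aged lean, 4.87, 10.5 and 11.9 CPM in young obese and 3.93, 9.06 and 14.7 CPM in young lean libraries. Robo1 was called in no comparison.

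Slit1, Sema3d and Sema3e were singled out after their values were seen. Slit1, the scarcest Slit per kilobase, was at 7.40 and 7.07 CPM in young obese 1 and 2, 9.05 CPM in aged lean 16 and 7.09 CPM in aged obese 17, and at 2.56 CPM or less in the other 26 libraries. The same libraries were among the highest of their groups for Sema7a. Ntn1, the founding netrin, reached 17.02 and 16.4 CPM in aged obese 14 and 15, against at most 10.2 CPM in aged lean, 6.22 CPM in young obese and 9.92 CPM in young lean libraries. Sema3d was high in the same mice, at 9.29 and 8.33 CPM in aged obese 14 and 15.

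**Figure D4:**
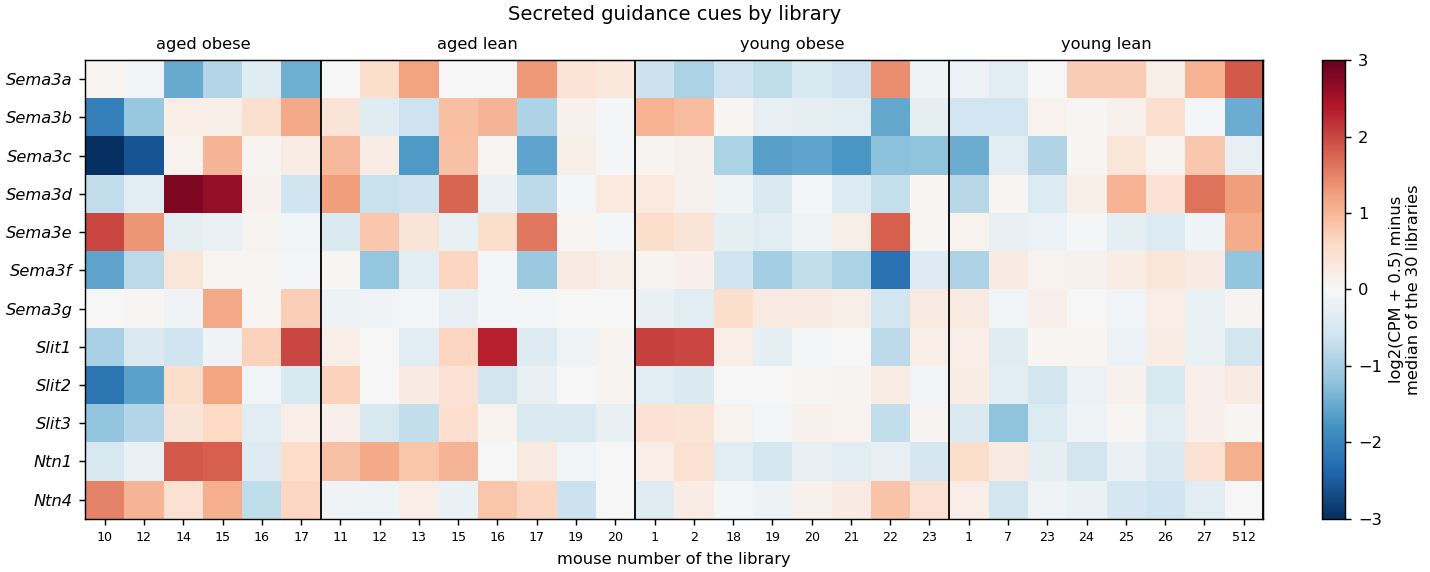
Log2(CPM + 0.5) of the 12 tested secreted cues (class 3 semaphorins, Slits and netrins) in each of the 30 libraries, minus the median of all libraries, with red for higher and blue for lower values and colour ends at −3 and 3. Aged obese 10 and 12 are blue for Sema3b, Sema3c, Sema3f, Slit2 and Slit3 and red for Sema3e and Ntn4, while young obese 1 and 2 are red for Slit1.

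The heat map of secreted cues shows its deepest colours in single mice of a group. Aged obese 10 and 12 had 5.35 and 8.96 CPM of Sema3c, while the other 4 libraries of that group had 59.7 to 114 CPM. They had 7.32 and 4.39 CPM of Sema3e, the ligand of plexin D1, against 1.10 to 1.56 CPM in the other 4. Young obese 1 and 2 had 59.7 and 62.1 CPM of Sema3c, while the other 6 libraries of that group had 16.6 to 28.9 CPM. Cd34 also differed in these mice: aged obese 10 and 12 had 0.193 and 0.732 CPM, and the other 4 of that group had 9.67 to 38.0 CPM. Young obese 1 and 2 had 26.1 and 27.9 CPM of it, and the other 6 of that group had 0.912 to 2.79 CPM. The part of the sorted population's makeup in these values was not tested.

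**Figure D5:**
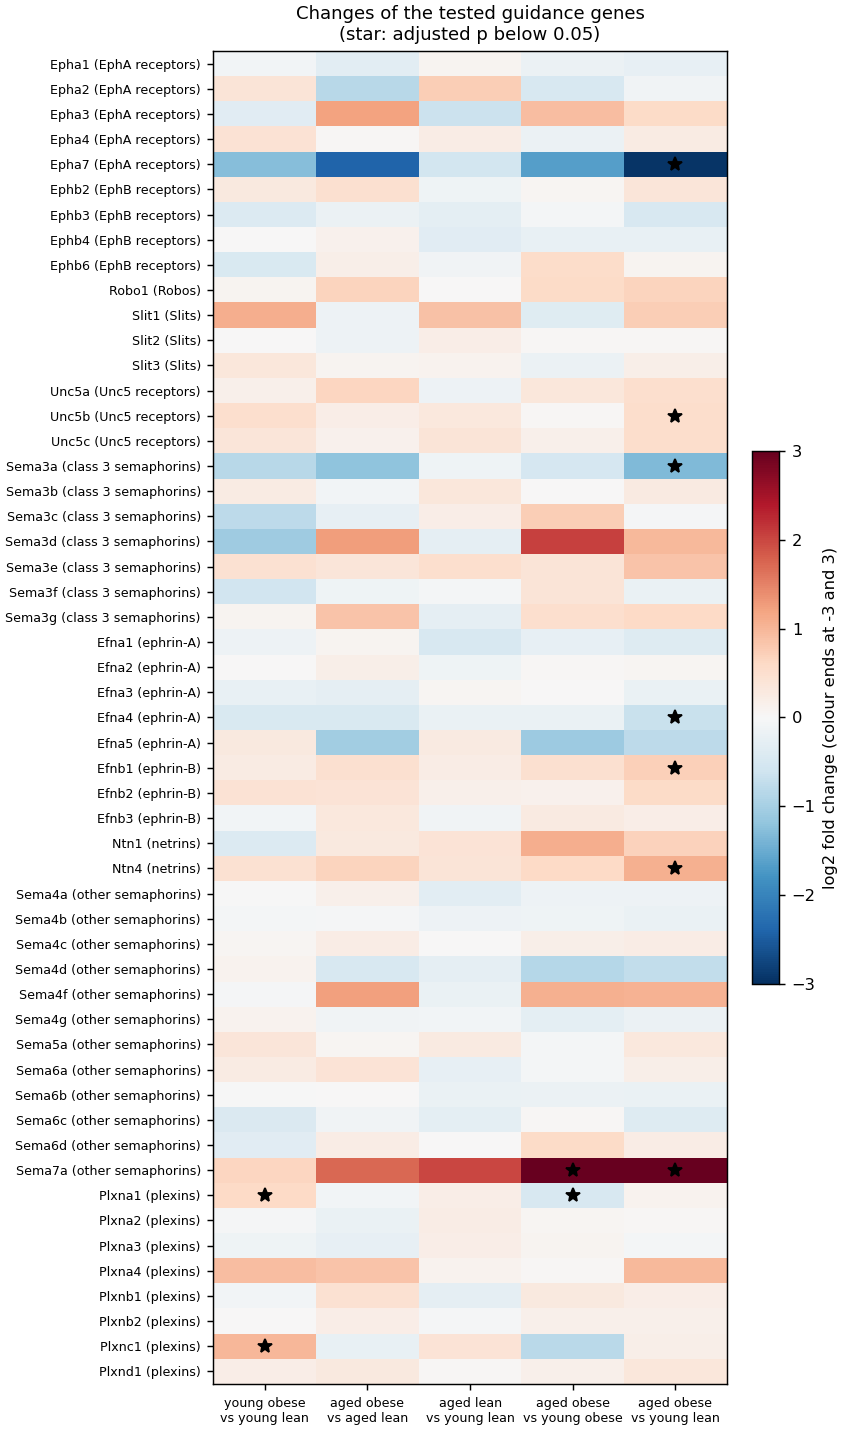
Log2 fold change of the 53 tested guidance genes (rows, by family) in 5 comparisons (columns), from blue for lower to red for higher in the group named first, with colour ends at −3 and 3 and a star for an adjusted p below 0.05. Of the 11 stars 7 are in the column of aged obese against young lean, and the columns of aged obese against aged lean and of aged lean against young lean have none.

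The heat map of changes puts the 11 calls beside the genes that were not called. Its columns share groups of libraries, so likeness between them is no separate evidence.

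Beyond the ligands and receptors, 70 co-receptors and cytoplasmic partners of these pathways were listed, of which 67 could be tested. Obesity in young mice raised 4 of them and lowered none, which was 5.97% of 67 against 8.83% of all genes (3.46% higher): Draxin, a secreted cue that binds Dcc, the kinases Pak2 and Rock1, and Tiam1, an activator of Rac. Draxin had 6.30, 15.2 and 17.9 CPM as lowest, median and highest value in young obese libraries, against 3.39, 4.29 and 10.3 CPM in young lean libraries, and a log2 fold change of 1.38 ± 0.33 (adjusted p = 0.0198). The groups overlapped, since young lean mouse YL512, at 10.3 CPM, lay above young obese 22 and 23, at 6.30 and 7.27 CPM. Young lean 23, at 6.43 CPM, also lay above young obese 22. Dcc, which Draxin binds, had 0 CPM in every library. Pak2, Rock1 and Tiam1 had log2 fold changes of 0.43, 0.39 and 0.89. With the length and GC offset Rock1 was at 0.15 and not called (adjusted p = 0.272). None of the 4 stayed called without young obese 1 and 2, where the values were 1.32 for Draxin, 0.31 for Pak2, 0.25 for Rock1 and 0.48 for Tiam1.

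Age in obese mice raised 4 partners and lowered none, which was 5.97% of 67 against 3.07% of all genes (1.87% higher). Nrp1, the neuropilin that binds Sema3a, had 74.6, 124.5 and 135 CPM as lowest, median and highest value in aged obese libraries, against 51.2, 63.0 and 115 CPM in young obese libraries, with young obese 1 and 2 at the top of that range. Its log2 fold change was 0.67 ± 0.19 (adjusted p = 0.0467), a call kept in 3 of 14 fits that left out a library. Cspg4, a proteoglycan of pericytes and glial progenitors that also stood in the list of mural markers, rose by 2.04 ± 0.47 on the log2 scale (adjusted p = 0.0223), with aged obese 15 at 105 CPM and aged obese 16 at 4.96 CPM. Dpysl3, a cytoplasmic mediator of semaphorin signals, and Mical1, a plexin-linked enzyme that oxidises actin, were 2.18-fold and 1.69-fold higher by the fit. None of the 4 stayed called without aged obese 15 and aged lean 16 together, where the log2 fold changes were 1.44 for Cspg4, 1.02 for Dpysl3, 0.64 for Nrp1 and 0.61 for Mical1.

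In aged obese against young lean cells 12 partners rose and 2, Ablim1 and Dscam, fell, which was 20.9% of 67 against 10.3% of all genes. The smallest adjusted p belonged to Enah, an actin-binding protein of moving cell edges, with 257, 232, 207, 152, 82.9 and 75.5 CPM in aged obese mice 17, 15, 10, 12, 14 and 16, against 42.8, 77.8 and 114 CPM as lowest, median and highest value in young lean libraries. The 4 highest aged obese libraries lay above all young lean libraries, and the log2 fold change was 1.11 ± 0.25 (adjusted p = 0.00943). Mical2, which oxidises actin like Mical1, and Dpysl3 had log2 fold changes of 1.05 and 1.07. In a fit of these groups alone, 1 partner was called. Obesity in aged mice, age in lean mice and the interaction gave 0 calls among the partners by edgeR. At an unadjusted p below 0.05 there were 12, 2 and 7 partners, or 17.9%, 2.99% and 10.45%. The shares of all genes were 12.7%, 5.35% and 8%. DESeq2 gave 2, 0 and 0 calls of partners in the same comparisons and voom 0 in each.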

How the data were processed

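RNA of 30 libraries was sequenced, and the table the authors deposited gives for each Ensembl gene its raw count, a whole number with no normalization. The submitters' processing notes name STAR, then HTSeq 0.7.0 as well as DESeq2 1.12.4. The authors' genome build, annotation release and strand setting are not given in the sources used here. Overlapping and antisense genes may therefore share or lose reads. The table has 38561 genes and 5 lines that name no gene. Those lines entered neither library sizes nor tests, and hold 3.94% to 8.75% (no gene) and 2.69% to 3.41% (ambiguous) of the reads of a library. Groups and mouse numbers came from the sample titles, and 1 library came from each mouse.

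Guidance genes were found by symbol for 36639 identifiers with one. Gene class, chromosome and exon length came from GENCODE M21, and promoters from RefSeq on GRCm38.p6. In edgeR 4.0.16 (R 4.3.3), filterByExpr by group kept 14438 genes, TMM scaled the libraries, and glmQLFit with glmQLFTest was fitted to all 4 groups together with Benjamini-Hochberg adjustment over all genes tested. CPM used the scaled library sizes. Each library held 30597765 or more counts in genes, and libraries of a group differed by a chi-square per gene of 6.44 or more, so the spread between mice exceeded counting error. Alternatives were DESeq2 1.42.0, voomWithQualityWeights in limma 3.58.1, DESeq2's size factors, no filter, a fit of the compared groups alone, a block on shared mouse numbers, and fits without each library in turn or without aged obese 10 and 12, young obese 1 and 2, or aged lean 16 and aged obese 15. An offset for exon length and GC content was added after the data were seen, for 14297 genes that had both. The slope of log2 CPM per doubling of exon length, relative to the mean of all libraries, differed between groups. It averaged 0.0661 in young obese, −0.069 in young lean, 0.0209 in aged obese and −0.0127 in aged lean libraries. Young obese 1 and 2 were at 0.169 and 0.159, and young lean 26 was at −0.289.

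Named with values were every guidance gene called, the 2 most abundant of each family, the 3 with the smallest p in each comparison, and up to 4 called partners per comparison, 37 genes in all, of which 26 are guidance genes. The values of 1 named partner are not reported here. The genes and lists were chosen with earlier results of these data known. The labels name no sequencing batch, so no batch term could be fitted.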

Additional observations from a re-analysis of the deposited data

Results flagged for a closer look

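In each group the highest and lowest library of the 26 named guidance genes was set against the rest with Dixon's gap test, which was 104 groups of values. It marked 6 values in 5 libraries, and chance marks about 1 in 20 groups. For Sema7a, aged lean 16 was at 169.6 CPM with the next library at 17.2 CPM, and young lean 1 was at 16.8 CPM with the next at 10.2 CPM. For Sema3a, young obese 22 was at 24.4 CPM with the next at 8.17 CPM, and young lean mouse YL512 was at 33.1 CPM with the next at 18.8 CPM. For Efnb2, aged lean 16 was at 101.3 CPM with the next at 61.1 CPM. For Plxna1, young lean 26 was the lowest, at 126.2 CPM, with the next at 184.7 CPM. Without young lean 26 Plxna1 was still called in young obese against young lean cells.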

How the results depend on the processing

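Counts of called guidance genes moved as follows. For obesity in young mice (2) they were 4 with DESeq2, 9 with voom, 0 with the replicate block and 1 with the length and GC offset. For obesity in aged mice (0) they were 1 with DESeq2 and 1 without aged lean 16 and aged obese 15. For age in obese mice (2) they were 6 with DESeq2, 11 with voom, 4 without young obese 1 and 2, 9 without aged obese 10 and 12, and 1 without aged lean 16 and aged obese 15. For aged obese against young lean cells (7) they were 11 with DESeq2, 3 with voom, 2 with only these groups in the fit and 3 without aged lean 16 and aged obese 15. For the interaction (0) they were 2 with voom and 1 without aged obese 10 and 12. The cause was not tested. The share of all genes called under each alternative is not given here. The moves of these counts, and of those below, can therefore not be read as particular to guidance genes or partners.

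Counts of called partners moved likewise. For obesity in young mice (4) they were 10 with DESeq2, 25 with voom, 7 with only these groups, 0 with the replicate block and 0 without young obese 1 and 2. For obesity in aged mice (0) they were 2 with DESeq2 and 1 without aged lean 16 and aged obese 15. For age in obese mice (4) they were 7 with DESeq2, 14 with voom, 1 with only these groups, 9 without aged obese 10 and 12, and 0 without aged lean 16 and aged obese 15. For aged obese against young lean cells (14) they were 2 with voom, 9 with no filter, 1 with only these groups, 6 without aged obese 10 and 12, and 7 without aged lean 16 and aged obese 15.

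Leaving out 1 library at a time gave 2 to 4 called guidance genes for obesity in young, 0 to 3 for obesity in aged, 0 to 6 for age in obese and 3 to 11 for aged obese against young lean, with 0 throughout for age in lean and the interaction. For partners the ranges were 0 to 12, 0 to 4, 0 to 7 and 5 to 18, with 0 throughout for the same 2. No log2 fold change among the 35 followed changed its sign under any alternative run.

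The replicate block paired libraries with the same mouse number, which was possible for obesity in young (mice 1 and 23) and in aged mice (12, 15, 16 and 17). Deviations of same-numbered libraries from their group mean correlated at 0.307 in young mice and at 0.338, 0.243, −0.251 and −0.611 in aged mice. With only mice 1 and 23 in each young group the deviations mirror each other, so both pairs give the same value by construction. These correlations differ in sign and cannot decide whether the number marks a pairing. Each library came from a different mouse. The block used 4 libraries in young mice, 8 in aged mice and 12 for the interaction, with 0 called guidance genes and 0 called partners in each. In young mice it left 1 residual degree of freedom, and Plxna1 was at 0.52 and Plxnc1 at 0.61 (adjusted p = 0.524 for both), so the lost calls say nothing about stability. No paired analysis was possible because the groups share no numbers in the 3 comparisons of aged with young mice. Low counts limit Epha7 and the 12 untested genes.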
